A study of Mus musculus with 2 samples.

Results

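The mitosis, spindle and cytokinesis genes were described in mouse embryonic fibroblasts (MEFs, connective tissue cells grown from embryos) of LATS2-/- and LATS2+/+ C57BL/6J mice. The set was given as 50 gene names, and Cdc2a and Cdk1 are names of the same gene, so it holds 49 genes of the 27579 gene names with a usable probe. All 49 were on the array, with 81 probes, and were followed by their names in the array files, where Cdk1 appears as Cdc2a. In 8 groups by role, they were 10 kinases, phosphatases and cyclins of mitotic entry, 2 transcription factors, 8 genes of the spindle checkpoint and anaphase, 6 of the kinetochore, 3 of the chromosomal passenger complex, 8 spindle motors and microtubule proteins, 6 of chromosome structure and 6 of the central spindle and cytokinesis.

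Total RNA of untreated LATS2-/- (KO) and LATS2+/+ (WT) cells was labelled with the dyes Cy5 and Cy3 and hybridised together to 2 arrays of long oligonucleotide probes. The KO RNA carried Cy5 on the first array and Cy3 on the second. The labels name no separate cultures or mice, nor the age of the embryos, so both arrays were counted as 1 replicate of each genotype. Whether both arrays carry the same RNA preparations is not said. If they do, the spread between the arrays measures labelling and hybridisation error. No p-value is given, and no difference has a replicate check. In an RNA sample of many cells, fewer cells in mitosis and less mRNA in each cell cannot be told apart.

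As background, cells make most mitotic proteins afresh in each cycle, and their genes are transcribed together late in G2 and in mitosis. In resting cells and in G1 the DREAM complex (RB-like pocket proteins and E2F4 on the MuvB core) holds these genes off. Later MuvB joins B-Myb, the product of Mybl2, and then FoxM1 to switch them on. MuvB meets DNA at the cell cycle genes homology region (CHR), a short element near the start site, often with CCAAT boxes for the factor NF-Y nearby. LATS2 is a kinase of the Hippo pathway that has also been placed at the centrosome, where Aurora A phosphorylates it, and LATS2 loss is known for centrosome and cytokinesis defects.

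Values are log2 ratios of the normalised signal of the RNA labelled KO over that of the RNA labelled WT, called ratios here, so that a ratio of -1 is a 2-fold lower KO level. The brightest probe stood for a gene. A gene was tested if it was well above background, by the scanner software's flag, in at least 1 genotype on both arrays, which left 15877 genes with a median ratio of -0.00. Their ratios correlated between the arrays with Pearson's r of 0.945 across genes, which are not independent replicates. Within the pair of arrays the ratio of a single probe had an SD of 0.133, pooled over all probes, dim ones included.

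The labels were checked on Lats2 itself. Its 3 probes with neighbouring positions (mm8, chromosome 14) were higher in the RNA labelled KO, with mean ratios of 0.56, 0.56 and 0.63, and another probe, for a different transcript record, had ratios of -0.18 and -0.51. The brightest of them (chr14:56644080-56644139) read 7755 and 8321 units in the RNA labelled KO and 5402 and 5484 in the RNA labelled WT. Where these probes lie relative to the deleted part of the gene is not given in the sources used here, so they neither bear out nor overturn the labels, and every direction here rests on the labels. Lats1, the paralog, had a mean ratio of -0.03. All 12 fibroblast markers were detected, Vim through the RNA labelled WT alone. Of 31 usable markers of other cell types 9 were, and none of the 5 endothelial, 3 skeletal muscle or 3 germ cell and pluripotency markers.

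Nearly the whole mitotic set was lower in the RNA labelled KO. The median ratio of the 49 genes was -0.83 (-0.79 on the first array and -0.82 on the second), which is 56.2% of the WT level, with an SD over genes of 0.35. The ratios ran from -1.78 for Mki67, the proliferation marker Ki-67, to 0.20 for Mybl2. Of all genes tested 4.65% had a ratio at or below the median of the set. All 49 standing probes passed the background flag in every channel, so none passed the filter through 1 genotype alone.

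Past the single-probe SD on both arrays, 48 of the 49 genes were lower and 1, Mybl2, was higher, where 27.9% of all genes tested were lower and 26.5% higher. At 1.5-fold on both arrays 32 were lower and 0 higher, against 7.17% and 7.04% of all genes. At 2-fold 10 were lower and 0 higher, against 2.61% and 2.95%. These 10 were Mki67, Pttg1, Prc1, Racgap1, Anln, Cdc25b, Kif23, Kif22, Cdc20 and Plk1. Within the set, the ratios of the arrays correlated with r of 0.890 across its genes.

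**Figure D1:**
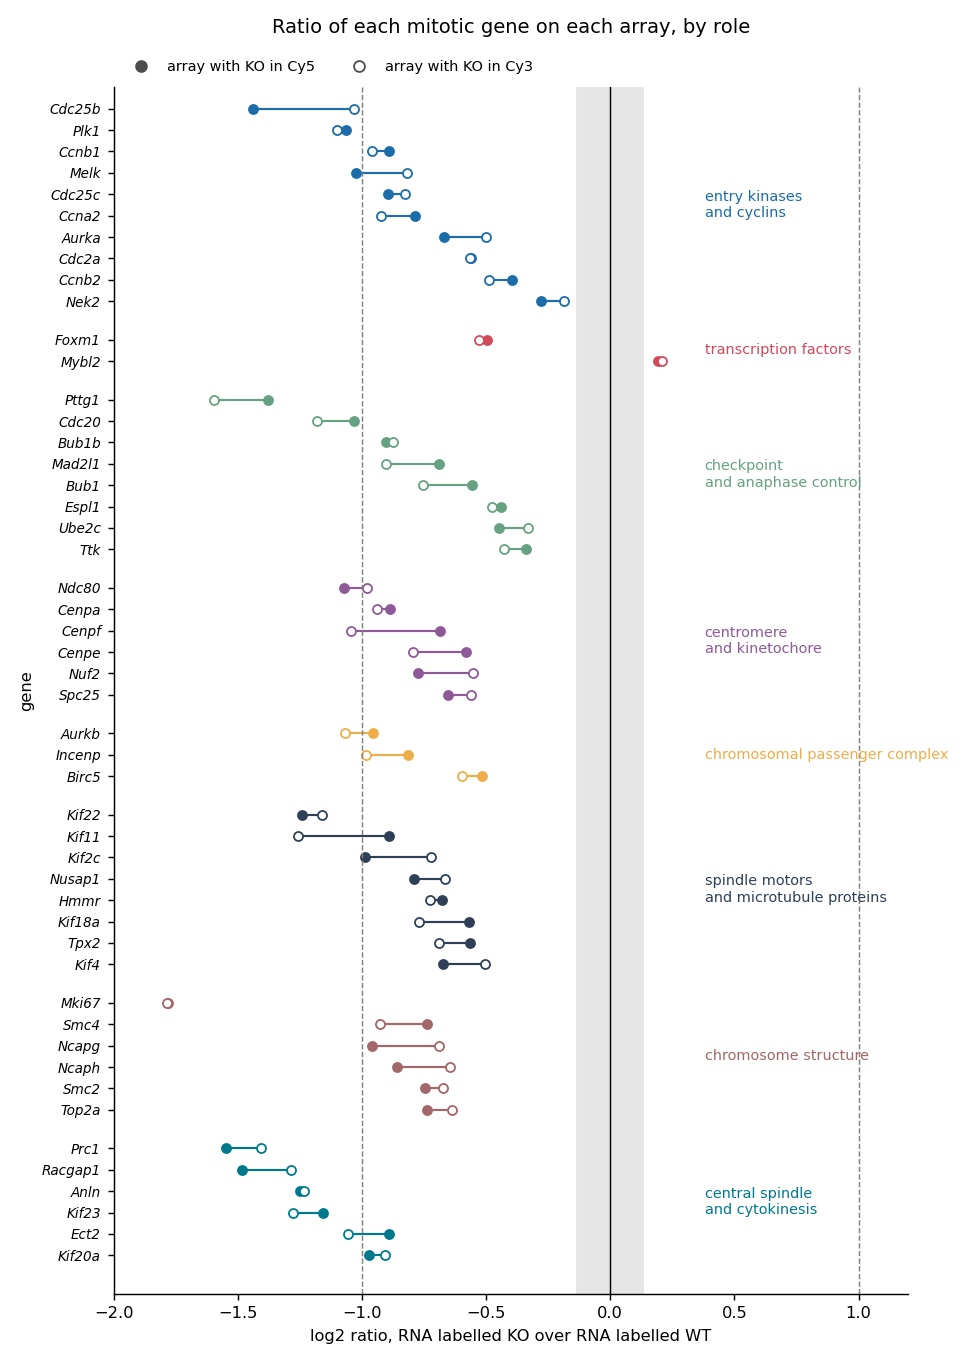
Ratio (log2, RNA labelled KO over RNA labelled WT, horizontal axis) of each of the 49 genes on the array with KO in Cy5 (filled) and in Cy3 (open), by role, with the single-probe SD of 0.133 as a grey band and 2-fold as dashed lines. Both points of 48 genes lie left of the band, Mybl2 alone lies right of it, and all 6 central spindle and cytokinesis genes lie near or past 2-fold.

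**Figure D2:**
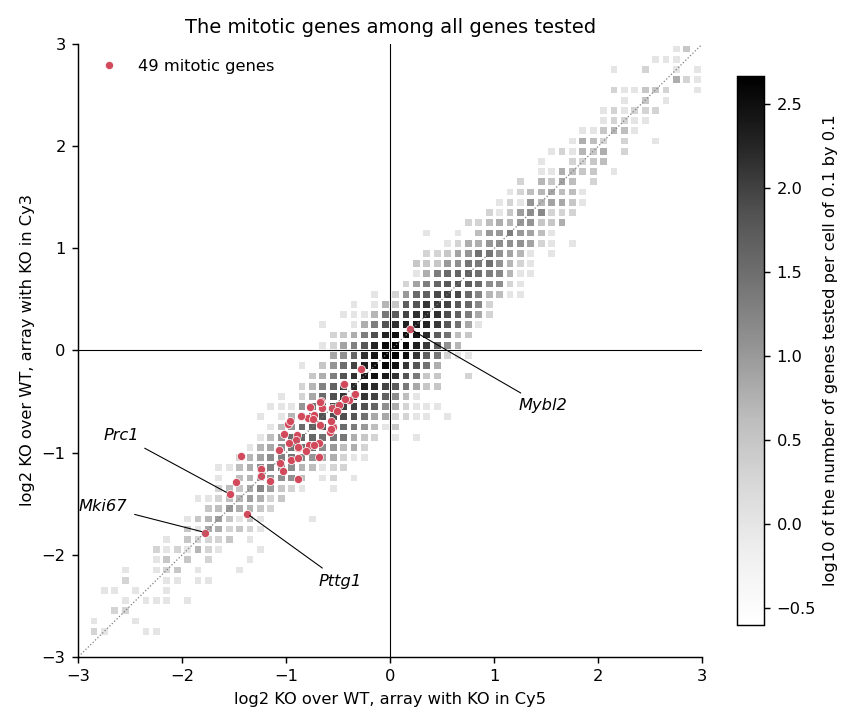
Ratios (log2 KO over WT) on the array with KO in Cy5 (horizontal) against the array with KO in Cy3 (vertical) for the 49 mitotic genes (red), over the number of genes tested per cell (grey, log10). The mitotic genes follow the diagonal below 0 on both axes, from Mki67 at -1.78 on both arrays up to Mybl2 at 0.19 and 0.21.

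Promoter sequence shows what many of these genes share. RefSeq promoter windows (GRCm38.p6, 250 bases before to 50 after a start site) were found for 41 of the 49 genes in 43 windows. The CHR core TTTGAA was found, on either strand, in 29 of the 43 windows (67.4%) and in 17.9% of all 32851 windows. Between 80 bases before and 30 after the start it was in 24 windows (55.8%), against 5.93% of all. CCAAT was in 31 windows (72.1%) against 37.4%, and both motifs together were in 26 (60.5%) against 6.95%. The variant TTTAAA was in 9 windows (20.9%) against 13.2%. The motifs can overlap by a few letters and were counted separately, and a match is a description of letters, not a bound site.

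The stretches from 100 bases before to 50 after the start are shown for 7 genes that hold both motifs: 6 of the 10 genes at 2-fold, and Ccnb2, one of the less changed members, with 3 evenly spaced CCAAT boxes. Of the genes at 2-fold that are not shown, Mki67 also holds both motifs, Anln lacks CCAAT, Cdc25b lacks the CHR core and Pttg1 holds none of the motifs. Mybl2, the single member that was higher, follows as one of the members that held none of the motifs, the others of which were lower. Capitals mark the CHR core, its variant and the CCAAT box, as named above or in reverse complement, and each line is written in the direction of its gene.
Prc1 (chr7:80294351-80294500, plus strand): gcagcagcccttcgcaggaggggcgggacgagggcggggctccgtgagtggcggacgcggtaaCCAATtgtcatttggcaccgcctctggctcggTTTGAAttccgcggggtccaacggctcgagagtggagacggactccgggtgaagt
Kif22 (chr7:127042371-127042520, minus strand): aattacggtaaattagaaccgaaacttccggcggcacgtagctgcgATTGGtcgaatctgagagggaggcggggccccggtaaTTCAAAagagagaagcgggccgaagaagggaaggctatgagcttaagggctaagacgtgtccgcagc
Cdc20 (chr4:118437294-118437443, minus strand): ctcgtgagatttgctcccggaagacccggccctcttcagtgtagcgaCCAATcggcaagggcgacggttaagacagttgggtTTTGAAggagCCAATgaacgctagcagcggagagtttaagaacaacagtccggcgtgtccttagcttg
Kif23 (chr9:61946750-61946899, minus strand): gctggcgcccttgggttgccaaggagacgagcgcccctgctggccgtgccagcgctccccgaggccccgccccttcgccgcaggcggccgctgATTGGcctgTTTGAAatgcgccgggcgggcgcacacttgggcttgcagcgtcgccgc
Racgap1 (chr15:99651607-99651756, minus strand): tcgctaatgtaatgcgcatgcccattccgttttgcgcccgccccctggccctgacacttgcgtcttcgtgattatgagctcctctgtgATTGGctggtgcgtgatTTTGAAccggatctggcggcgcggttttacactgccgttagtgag
Plk1 (chr7:122159335-122159484, plus strand): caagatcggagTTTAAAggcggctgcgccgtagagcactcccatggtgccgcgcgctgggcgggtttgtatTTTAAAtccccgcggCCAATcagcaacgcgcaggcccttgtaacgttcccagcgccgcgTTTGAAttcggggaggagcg
Ccnb2 (chr9:70421505-70421654, minus strand): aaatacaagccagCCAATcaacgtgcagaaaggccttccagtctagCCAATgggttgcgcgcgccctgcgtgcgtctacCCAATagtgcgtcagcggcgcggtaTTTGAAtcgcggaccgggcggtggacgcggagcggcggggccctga
Mybl2 (chr2:163054535-163054684, plus strand): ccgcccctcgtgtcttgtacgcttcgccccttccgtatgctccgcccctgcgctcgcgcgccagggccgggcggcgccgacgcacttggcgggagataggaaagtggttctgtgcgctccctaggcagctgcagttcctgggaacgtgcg

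In Prc1 the CHR core began 5 bases before the start and the CCAAT box 37 before. Kif22 held both on the opposite strand, 17 and 54 bases before. In Cdc20 a CHR core lay 18 bases before the start, between CCAAT boxes at 53 and 8. Kif23 and Racgap1 carried the same layout, an inverted CCAAT box just before the start (7 and 12 bases) and the CHR core just after it (from base 3 and base 6). The Ccnb2 boxes began 87, 54 and 21 bases before the start, with the CHR core from base 5 after it. Mybl2 held none of the 3 motifs in its 300 bases, and was 1 of 8 such members among the 41, while 45.7% of all windows held none. The other such members were all lower, with mean ratios of -1.49 for Pttg1, -0.92 for Melk, -0.80 for Mad2l1 and -0.75 for Ncaph. Nusap1 had -0.73, and Kif18a and Nuf2 each had -0.67.

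Genes with and without the CHR core overlapped in their ratios. The 27 with it had a median ratio of -0.86 (-1.78 to -0.38), and the 14 without it had a median of -0.71 (-1.49 to 0.20). Pttg1, at -1.49, was the lowest without the core and Mki67 the lowest with it. For CCAAT the medians were -0.83 with it (29 genes) and -0.77 without it (12 genes). No test was made of these differences.

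**Figure D3:**
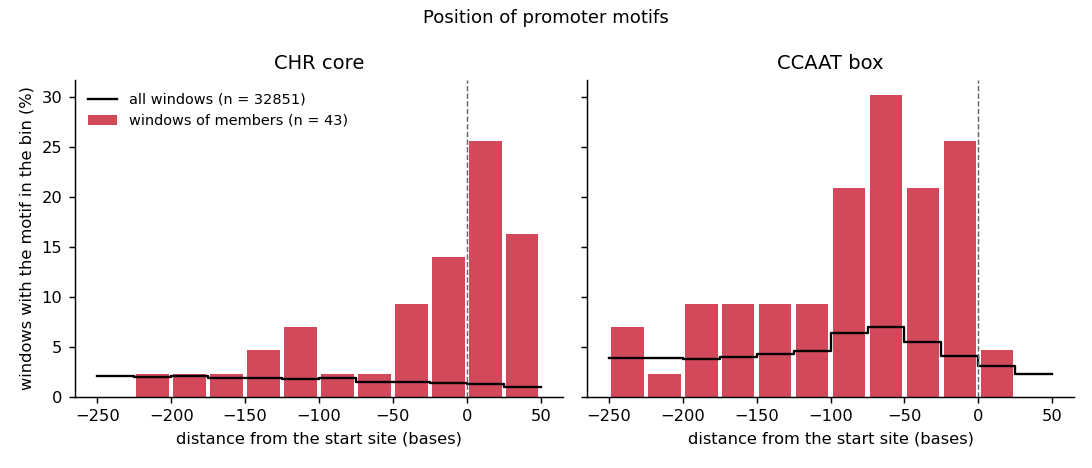
Share of promoter windows (percent, vertical axis) with the CHR core TTTGAA (left) or CCAAT (right) starting in each bin of 25 bases, by distance from the start site (horizontal axis), for the 43 windows of the mitotic genes (bars) and all 32851 windows (line). In the mitotic genes the CHR core is most frequent in the 25 bases from the start (25.6% against 1.31%) and CCAAT between 75 and 50 bases before it (30.2% against 6.99%).

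The central spindle and cytokinesis genes were the lowest group, with a median ratio of -1.23 (42.7% of WT). All 6 were lower by at least 1.5-fold on both arrays and 4 by at least 2-fold, against 7.17% and 2.61% of all genes tested. Prc1 bundles the antiparallel microtubules of the central spindle. Its signal was 7031 and 6941 units in the RNA labelled KO and 20535 and 18404 in the RNA labelled WT, for ratios of -1.55 and -1.41. Racgap1 and Kif23 are the GTPase-activating and the motor subunit of centralspindlin, which recruits Ect2 to the midzone. Racgap1 read 656 and 735 units against 1834 and 1791, with ratios of -1.48 and -1.29. Kif23 read 1340 and 1219 units against 2986 and 2956, with ratios of -1.16 and -1.28. Both subunits passed 2-fold on each array, and no KO value reached a WT value.

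Anln (anillin) links actin, myosin and septins in the contractile ring. It read 563 and 573 units against 1338 and 1348, and its ratios of -1.25 and -1.23 were among the closest between the arrays. Ect2, the exchange factor that switches on RhoA at the cleavage site, had ratios of -0.89 and -1.05. Kif20a, the kinesin that brings the chromosomal passenger complex to the midzone, had -0.97 and -0.91. In this group the mean ratios spanned -1.48 to -0.94, a level 1.92- to 2.78-fold lower than in WT.

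Among the genes of mitotic entry the median ratio was -0.86, all 10 were lower past the single-probe SD and 6 by 1.5-fold. The shares of all genes tested lower at these thresholds were 27.9% and 7.17%. Cdc25b, the phosphatase that starts the activation of cyclin-dependent kinase 1, read 2236 and 2613 units against 6068 and 5338. Its ratios of -1.44 and -1.03 differed more between the arrays (SD 0.29) than those of any other member, yet both passed 2-fold. Cdc25c, its relative that completes this step, had ratios of -0.90 and -0.83. Plk1, the Polo kinase that acts from centrosome maturation to cytokinesis, read 5049 and 4833 units against 10567 and 10366, with ratios of -1.07 and -1.10.

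Cyclins of the same kinase were not lower to the same extent. Ccnb1 (cyclin B1) had ratios of -0.89 and -0.96, and Ccna2 (cyclin A2) of -0.79 and -0.92. Ccnb2 (cyclin B2), whose promoter with 3 CCAAT boxes is shown above, had ratios of -0.39 and -0.49. The gap between both B cyclins, 0.50 and 0.47 on the respective arrays, was larger than the single-probe SD. Cdc2a (Cdk1), their catalytic partner, had -0.56 on each array.

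The other entry kinases varied as widely. Melk, a kinase that peaks in mitosis, had ratios of -1.02 and -0.82. Aurka (Aurora A), which matures centrosomes and is known to phosphorylate LATS2, had -0.67 and -0.50. Nek2, which frees the linker between both centrosomes, had -0.28 and -0.19, the smallest change of the 48 lower genes.

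Both transcription factors lay towards the upper end. Foxm1, the forkhead factor of the late programme, had ratios of -0.50 and -0.53, and its signal was 2007 and 1932 units against 2829 and 2791. Mybl2 read 868 and 885 units in the RNA labelled KO and 760 and 767 in the RNA labelled WT. Its ratios of 0.19 and 0.21 made it the only member that was higher, by less than 1.5-fold and by more than the single-probe SD. Each factor had a single probe, so no second probe bears on these values.

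The spindle checkpoint holds anaphase back until every kinetochore is attached. The anaphase-promoting complex (APC/C) with Cdc20 then marks securin and cyclin B for destruction. Pttg1 (securin, the inhibitor of separase) had the second lowest ratio of the set, at 7669 and 6447 units against 19959 and 19512, with ratios of -1.38 and -1.60. Its target Espl1 (separase, which cuts cohesin) had ratios of -0.44 and -0.48. Securin mRNA was therefore lower by 1.03 log2 units more than separase mRNA in mean ratio. Cdc20 read 10074 and 9302 units against 20625 and 21084, with ratios of -1.03 and -1.18. Ube2c, the ubiquitin-conjugating enzyme that starts chains for the APC/C, had only -0.45 and -0.33.

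Of the checkpoint proteins themselves, Bub1b (BubR1) had ratios of -0.90 and -0.88 and Mad2l1 (Mad2), which with BubR1 and Bub3 binds Cdc20, had -0.69 and -0.90. The kinase Bub1 had -0.56 and -0.75. Ttk (Mps1), the kinase that starts the signal, had -0.34 and -0.43. The median of the 8 genes was -0.73, with 4 lower by 1.5-fold and 2 of these by 2-fold. Over all genes tested 7.17% were lower by 1.5-fold and 2.61% by 2-fold.

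The 6 kinetochore genes were the most uniform of the larger groups, with mean ratios from -1.03 to -0.61 (SD over genes 0.16) around a median of -0.78. Ndc80, Nuf2 and Spc25 are subunits of the same microtubule-binding complex. Their ratios were -1.07 and -0.98 for Ndc80, -0.78 and -0.55 for Nuf2 and -0.65 and -0.56 for Spc25. Cenpa, the histone H3 variant that marks centromeres, had -0.89 and -0.94. The large coiled-coil proteins Cenpe, a motor, and Cenpf had -0.58 and -0.80, and -0.68 and -1.04. For Cenpf the arrays differed by an SD of 0.26, the next widest spread after Cdc25b together with that of Kif11.

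In the chromosomal passenger complex, which corrects wrong attachments and later moves to the midzone, Aurkb (the Aurora B kinase) had ratios of -0.95 and -1.07. Its activator Incenp had -0.82 and -0.98. Birc5 (survivin), which brings the complex to centromeres, had -0.51 and -0.60. Another subunit, Cdca8 (borealin), was not in the set but in a list of other mitotic genes, with ratios of -1.01 and -1.12. So 3 of these 4 subunits lay between -1.06 and -0.90 in mean ratio and survivin lay apart at -0.56.

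Among the motors and microtubule proteins the median ratio was -0.72, with 5 of 8 lower by 1.5-fold, against 7.17% of all genes tested. Kif22 (Kid), which pushes chromosome arms towards the equator, read 7497 and 8031 units against 17702 and 17979, with ratios of -1.24 and -1.16. Kif11 (Eg5), which slides the poles apart, had -0.89 and -1.26. Kif2c (MCAK), which takes microtubules apart at their ends, had -0.99 and -0.72. The other 5 lay close together, at mean ratios of -0.73 for Nusap1, -0.70 for Hmmr, -0.67 for Kif18a, -0.63 for Tpx2 (the activator of Aurora A) and -0.59 for Kif4.

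All 6 genes of chromosome structure were lower by 1.5-fold, against 7.17% of all genes tested. Mki67, whose product coats mitotic chromosomes, read 9877 and 9852 units against 33915 on both arrays. Its ratio of -1.78 on each array was the lowest of the set, and its second probe had a mean ratio of -1.46. The condensin subunits Smc4, Ncapg, Ncaph and Smc2, which compact chromosomes, had mean ratios of -0.83, -0.83, -0.75 and -0.71. Top2a, the topoisomerase that untangles sister chromatids, had -0.69. Apart from Mki67 the group spanned just 0.14 log2 units.

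**Figure D4:**
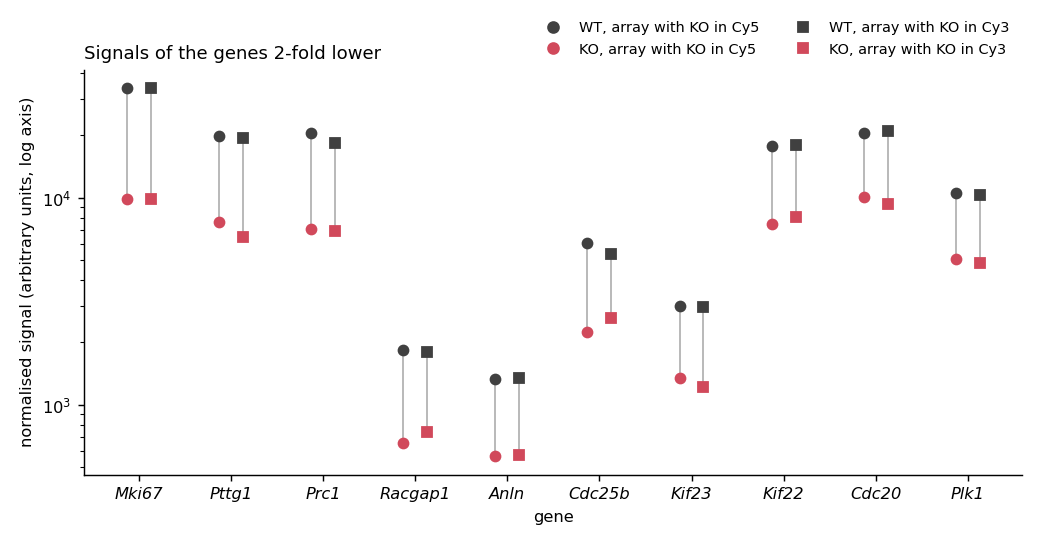
Normalised signal (arbitrary units, log axis) of the 10 genes lower by 2-fold on both arrays, for RNA labelled WT (grey) and KO (red), on the array with KO in Cy5 (circles) and in Cy3 (squares). Every KO signal lies below both WT signals of its gene, from Mki67 (9877 and 9852 against 33915) to Plk1 (5049 and 4833 against 10567 and 10366). Heights are not comparable between genes, since probes differ in brightness.

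Second probes were read as a further check, which could not reach the 24 of 49 genes with 1 usable probe. Of the 81 member probes 73 passed the background flag in all channels, the 49 standing probes among them. Of these 73, 72 had a ratio below 0 on each array, Mybl2 being the exception. Of all genes tested 50.5% had a mean ratio below 0. In the 19 genes with several probes that passed the flag, each of these probes had a mean below 0, and within no gene did they differ by over 1 log2 unit. The size was less even. Beside the standing probes, the 24 further probes that passed had means from -1.46 for Mki67 to -0.18 for Top2a, and those of Ect2 (-0.22), Smc2 (-0.22, the dimmest of 4) and Cenpe (-0.26 and -0.31) were also near the upper end. Of the genes at 2-fold, Cdc25b had further probes at -1.03 and, for the dimmest, -0.58, Kif23 at -1.14, Racgap1 at -0.76 and Anln at -0.56. Pttg1, Prc1, Kif22, Cdc20 and Plk1 had 1 usable probe each. The other 8 probes were too dim in at least 1 channel, and 7 of them, as for Cenpa and Melk, had means within 0.133 of 0.

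Related lists, chosen like the members with earlier results of these data known, were lower too, but less far. Past the single-probe SD on both arrays, 27.9% of all genes tested were lower and 26.5% higher. The 39 tested genes of a list of other late cell cycle mitotic genes had a median ratio of -0.66, with 33 lower and 2 higher past the single-probe SD. Lower by 2-fold were Troap (-1.26), Aspm (-1.19), Cdkn3 (-1.12), Shcbp1 (-1.08), Cdca8 (-1.06) and the kinase Pbk, which lay just at the threshold. Psrc1, a microtubule-binding protein, was the highest with 0.34 and 0.46. Of 27 other kinetochore and centromere genes (median -0.42) 19 were lower and 4 higher. The centromere proteins Itgb3bp (-1.71) and Cenpp (-1.18) were lower by 2-fold, and Zwint, an outer kinetochore protein of the checkpoint, was the highest with ratios of 0.69 and 0.71. Among 13 other condensin and cohesin genes (median -0.46) 10 were lower and 0 higher, from the cohesin subunit Rad21 at -1.33 to the acetyltransferase Esco1 at 0.14. These values are of the brightest probe, and several genes at 2-fold had a further probe much nearer to no change. The highest probe had a mean of -0.06 for Aspm, -0.10 for Cenpp, -0.16 for Shcbp1, -0.17 for Itgb3bp and -0.18 for Cdkn3. Background flags of these further probes are not given here.

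Genes of the APC/C, of structural scaffolds and of DREAM lay nearer to the median of all genes. Their counts past the single-probe SD stand beside the same 27.9% lower and 26.5% higher of all genes tested. The 14 APC/C genes had a median of -0.20 with 6 lower and 0 higher, from Ube2s (-0.95) to Anapc4 (0.18). The arrays differed for both, with ratios of -0.56 and -1.34 for Ube2s (SD 0.55) and of 0.30 and 0.06 for Anapc4. The 22 scaffold genes of microtubules and centrosomes had a median of -0.27, with 11 lower and 2 higher, from Pcnt (pericentrin, -1.27, lower by 2-fold) to the septin Sept7 (0.57). In the 11 tested genes of DREAM and MuvB the median was -0.37, with 6 lower and 1 higher. Lin9, a subunit of the MuvB core, was the lowest at -0.69 and Dyrk1a, the kinase known to promote DREAM assembly, the highest at 0.36.

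For the earlier wave of the cycle, 45 S phase and replication genes had a median of -0.30, with 31 lower and 2 higher past the single-probe SD. Of all genes tested 27.9% were lower and 26.5% higher at this threshold. Their lowest was E2f2 at -1.45, and Gins3 (-1.12) was also lower by 2-fold. Rrm2, the small subunit of ribonucleotide reductase, was higher by 2-fold with a mean ratio of 1.19. The share lower by 1.5-fold was 6 of 45 genes, compared with 32 of 49 mitotic genes and 7.17% of all genes tested. No test was made of these gaps. Cell type markers also differed: 9 of the 12 fibroblast markers were lower and 1 higher past the single-probe SD, from Postn at -1.69 to Fn1 at 0.89. The shares of all genes tested at this threshold were again 27.9% and 26.5%. Vim, counted as lower, was dim, at 75 and 79 units in the RNA labelled KO against 130 and 156. Their summed signal was 144064 to 155993 units in the RNA labelled KO and 224931 to 227708 in the RNA labelled WT. Postn alone read 22866 and 19625 units in the RNA labelled KO and 71654 and 65633 in the RNA labelled WT. Probes differ in brightness, so such a sum is weighted to the brightest probes and does not measure cell content. The part of these fibroblast markers in the mitotic result was not tested. Markers of other cell types moved as well. Of 3 detected macrophage markers, Cd14, a lipopolysaccharide receptor, was lower by 2-fold on both arrays (-1.05 in mean ratio), while Csf1r (-0.05) and Cd68 (0.14) were not past the single-probe SD on both arrays and Emr1, Ptprc and Itgam were not detected. The list, undetected probes included, summed to 548 to 551 units in the RNA labelled KO and 741 to 744 in the RNA labelled WT. In this sum Cd14 alone read 161 and 189 units against 343 and 379. Of 3 detected neural markers, Map2, a microtubule-binding protein, was lower by 1.5-fold (-0.95 in mean ratio), Nes was lower past the single-probe SD (-0.30) and Tubb3 had -0.11, with Sox2 and Gfap not detected. That list, undetected probes included, summed to 2339 to 2378 units against 3437 to 3497, of which Map2 alone read 1065 and 1078 against 2124 and 2010. The detected epithelial markers Krt5 (0.01) and Krt14 (-0.08) and the erythroid Hbb-b1 (0.00) did not pass the SD. The part of these markers in the mitotic result was not tested.

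**Figure D5:**
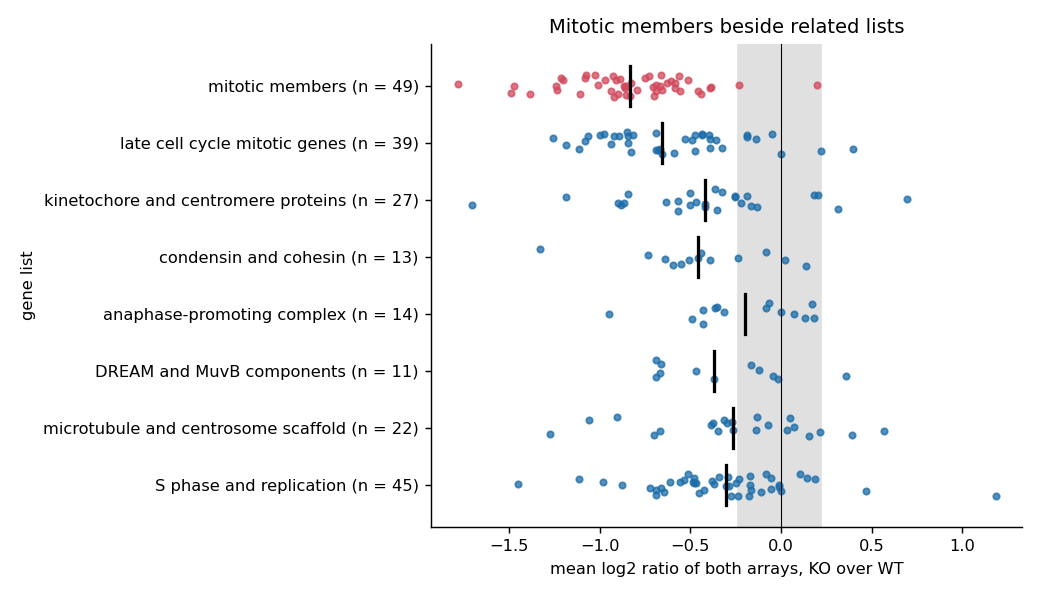
Mean ratio of both arrays (log2, KO over WT, horizontal axis) of the genes tested in each list (points; vertical jitter only separates them), with the list median (black bar) and the middle 50% of all genes tested (grey). The medians run from -0.83 in the 49 members over -0.66 in the other late mitotic genes to -0.30 in the S phase genes and -0.20 in the anaphase-promoting complex.

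The calls depended on correcting the dyes within each array. Without loess, with each array only centred on its median, the members' median was 0.07 on the first array and -1.62 on the second, and the arrays correlated with r of 0.438 across all genes tested. The mean of both arrays, in which a dye effect of equal size cancels, was then -0.77, and 48 of 49 genes were still below 0.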

How the data were processed

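The authors deposited, per the file headers, each spot's mean signal and its median local background as raw intensity, and a log10 ratio (Cy5 to Cy3) made by the scanner software. The deposited log2 table held KO over WT from the processed signals. The submitters' processing notes name Agilent Feature Extraction 10.5.1.1. Probe positions are on mm8 as in the files.

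Background correction used normexp with an offset of 50 (limma 3.58.1 under R 4.3.3), and ratios were normalised by loess within each array. Control spots and outlier flags were left out, spots of a probe averaged, and the second array turned. A call required each array to pass the threshold one way, and a flag well above background (in a share of at least 0.5 of a probe's spots) in the higher genotype on both arrays. Signals are after Aquantile. The thresholds were 2-fold, as in the study's methods, 1.5-fold and the single-probe SD. Calling was tested on simulated data with known changes, all well past 2-fold, which does not bear on genes near a threshold. Of the member probes, 66 of 81 matched RefSeq names by accession (2 of these as Cdk1), and motifs were counted in RefSeq promoters. The members without a window were Aurkb, Ccna2, Cdc25c, Foxm1, Incenp, Kif20a, Smc4 and Tpx2. Sequences shown were chosen after values and motifs were seen.

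All members are accounted for. In the other lists, genes at 2-fold and each list's highest and lowest are named, with those needed beside a member. The members and lists were chosen with earlier results of these data known. Tables and plots used numpy 2.4.6, pandas 2.3.3, matplotlib 3.10.9 and scipy 1.17.1 in Python 3.11.15. The number of arrays limits the precision.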

Additional observations from a re-analysis of the deposited data

How the results depend on the processing

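No paired analysis was possible because both arrays were counted as 1 replicate of each genotype. The members' median of -0.83 was -0.77 with median centring in place of loess, -0.86 with Feature Extraction's own log ratio and with the deposited log2 table, and -0.65 when all probes of a gene were averaged, dim ones included. Each array alone gave -0.82 to -0.79. The 10 genes at 2-fold became 0 with median centring, where the dye effect moves the arrays apart, and ranged from 7 to 13 under the other array settings and from 12 to 14 on each array alone. The methods' t-test (2 ratios against 0, so 1 degree of freedom) with 2-fold in the mean gave 11 lower genes at its threshold and 0 after Benjamini-Hochberg adjustment, and it compares the RNAs, not the genotypes. The 32 genes at 1.5-fold became 2 with median centring and otherwise 25 to 34 (36 to 37 on each array alone). The 48 genes past the single-probe SD, recomputed by choice made after seeing the data, became 0 with median centring and otherwise 45 to 48. No member was higher at 1.5-fold or 2-fold under any of these settings. The late mitotic genes' median of -0.66 was -0.61 with median centring, -0.48 with probes averaged and -0.64 to -0.61 for single arrays. That of the S phase genes (-0.30) was -0.33 with the deposited table and the software's own ratio and -0.31 to -0.29 on each array alone. Of 490 recomputed values of single members 456 moved by less than the single-probe SD, 12 became larger and 22 smaller, and 0 changed sign. Offset 10, no background subtraction, outlier spots kept and genes well above background in both genotypes left every median of the set within its spread between arrays.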

Other observations

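Beside the mitotic genes, the cell cycle inhibitors did not move one way. Cdkn1a (p21), an inhibitor of cyclin-dependent kinases, had ratios of 0.87 and 1.13 in the RNA labelled KO over WT, at 3226 and 3570 units against 1765 and 1633, so it was higher by 1.5-fold on both arrays and past 2-fold on the second alone. Cdkn2c and Cdkn2d, inhibitors of the cyclin D kinases, had mean ratios of -1.02 and -1.05, lower by 1.5-fold. Of the 9 inhibitors 4 were lower and 3 higher past the single-probe SD, around a median of -0.08. Of all genes tested 27.9% were lower and 26.5% higher at this threshold. Cdkn2b, counted as higher, lay just at the SD with 0.13 on each array.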
